A study of Mus musculus with 24 samples.

Results

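The 9 genes described here are markers of lymphocytes measured in whole mouse lung. Cd3e, Cd4 and Cd8a mark T cells, Cd79a, Ms4a1 and Ighm mark B cells, Ncr1 and Nkg7 mark NK cells, and Il1rl1 encodes the receptor of interleukin-33, which is carried by group 2 innate lymphoid cells, mast cells and some T cells. They were chosen by name and were found by matching the Ensembl identifiers of the lung table to gene symbols. All 9 were among the 36109 genes of that table, and all 9 were among the 16819 genes kept after the filter of edgeR for low counts.

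The study asked what loss of GSDMD, the pore-forming protein of pyroptosis, changes in newborn mice injured by high oxygen. GSDMD-KO mice were C57/B6 mice homozygous for a small CRISPR/Cas9 exon deletion that every cell carries from birth, and WT mice were littermates from the same heterozygous crosses. Pups were kept in 85% oxygen (hyperoxia, O2) or in room air (RA, 21% oxygen) from postnatal day 1 to 14, and lungs were collected on day 15. The 4 groups were WT-RA, WT-O2, KO-RA and KO-O2, with 3 mice each and 1 library of whole-lung RNA per mouse. Lungs within a group are called lung 1, 2 and 3, which are names only and pair no lungs across groups.

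T cells recognise antigen through a T cell receptor that signals through the CD3 chains, and CD4 and CD8 divide them into helper and cytotoxic cells. B cells carry membrane immunoglobulin that signals through CD79a and CD79b, and naive B cells carry IgM and IgD. NK cells and innate lymphoid cells respond without a rearranged antigen receptor, and both kinds of cell, like T and B cells, settle in the mouse lung in the weeks after birth.

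The libraries held 28763661 to 29604254 counts assigned to genes. Gsdmd, the targeted gene, differed by -1.33 on the log2 scale between KO-O2 and WT-O2 lungs and by -0.79 between KO-RA and WT-RA lungs, with 13.7 ± 2.38 CPM still counted in KO-O2 (SD, n = 3). The defining genes of lung were high in every library, with Sftpc, the surfactant protein C gene of alveolar type 2 cells, at 8176 to 15030 CPM. Y-linked transcripts were taken as present where they exceeded 20 CPM in sum. Of the 3 lungs in each group, they were present in 0 WT-RA, 1 WT-O2, 2 KO-RA and 3 KO-O2 lungs. Sex therefore overlapped in part with genotype and, within each genotype, with exposure. KO-O2 lung 2 stood apart in Rag1 and Dntt, genes of immature thymocytes, and within KO-O2, lungs 1 and 2 stood apart in the summed CPM of erythroid genes, 26290 and 29930 against 5970 in lung 3. The WT-O2 lungs had 2920 to 4152 CPM of erythroid genes, the WT-RA lungs 15750 to 18150, and the KO-RA lungs 26850, 17770 and 12680. KO-O2 lung 1 also held liver transcripts, 165.8 CPM in sum, where no other lung exceeded 2.51. Results for the hyperoxia comparison are given below with and without these lungs where that changes a call.

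Levels in the lung are CPM, the counts of a gene relative to the TMM-normalized total of its library. A gene is called changed where its p is under 0.05, its p adjusted by the Benjamini-Hochberg method over all tested genes is under 0.1, and it differs by 2-fold or more, the thresholds of the study. The test throughout is the quasi-likelihood F-test of edgeR unless another is named, and SE stands for the standard error of the log2 values. In whole-lung RNA, fewer cells of a type and less RNA per cell cannot be told apart.

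Most of the lymphocyte markers were lower after hyperoxia in both genotypes. In WT lungs 5 of the 9 genes were called lower (Ms4a1, Cd79a, Ighm, Cd8a and Cd3e) and 0 higher, where 6.57% of all tested genes were called lower and 5.04% higher. In GSDMD-KO lungs 4 of the 9 were called lower (Ms4a1, Cd79a, Ighm and Cd3e) and 1, Ncr1, higher, where 6.03% of all tested genes were called lower and 4.57% higher. Without the fold threshold, 7 members in WT and 5 in GSDMD-KO were lower at an adjusted p under 0.1, against 24.7% and 23.4% of all tested genes. All 3 hyperoxia lungs lay below all 3 room air lungs for 6 members in WT and for 4 in GSDMD-KO, and for 25.2% and 26% of all tested genes. The median log2 fold change of the 9 genes was -1.39 in WT and -0.8 in GSDMD-KO, and that of all tested genes was -0.01 in both.

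**Figure D1:**
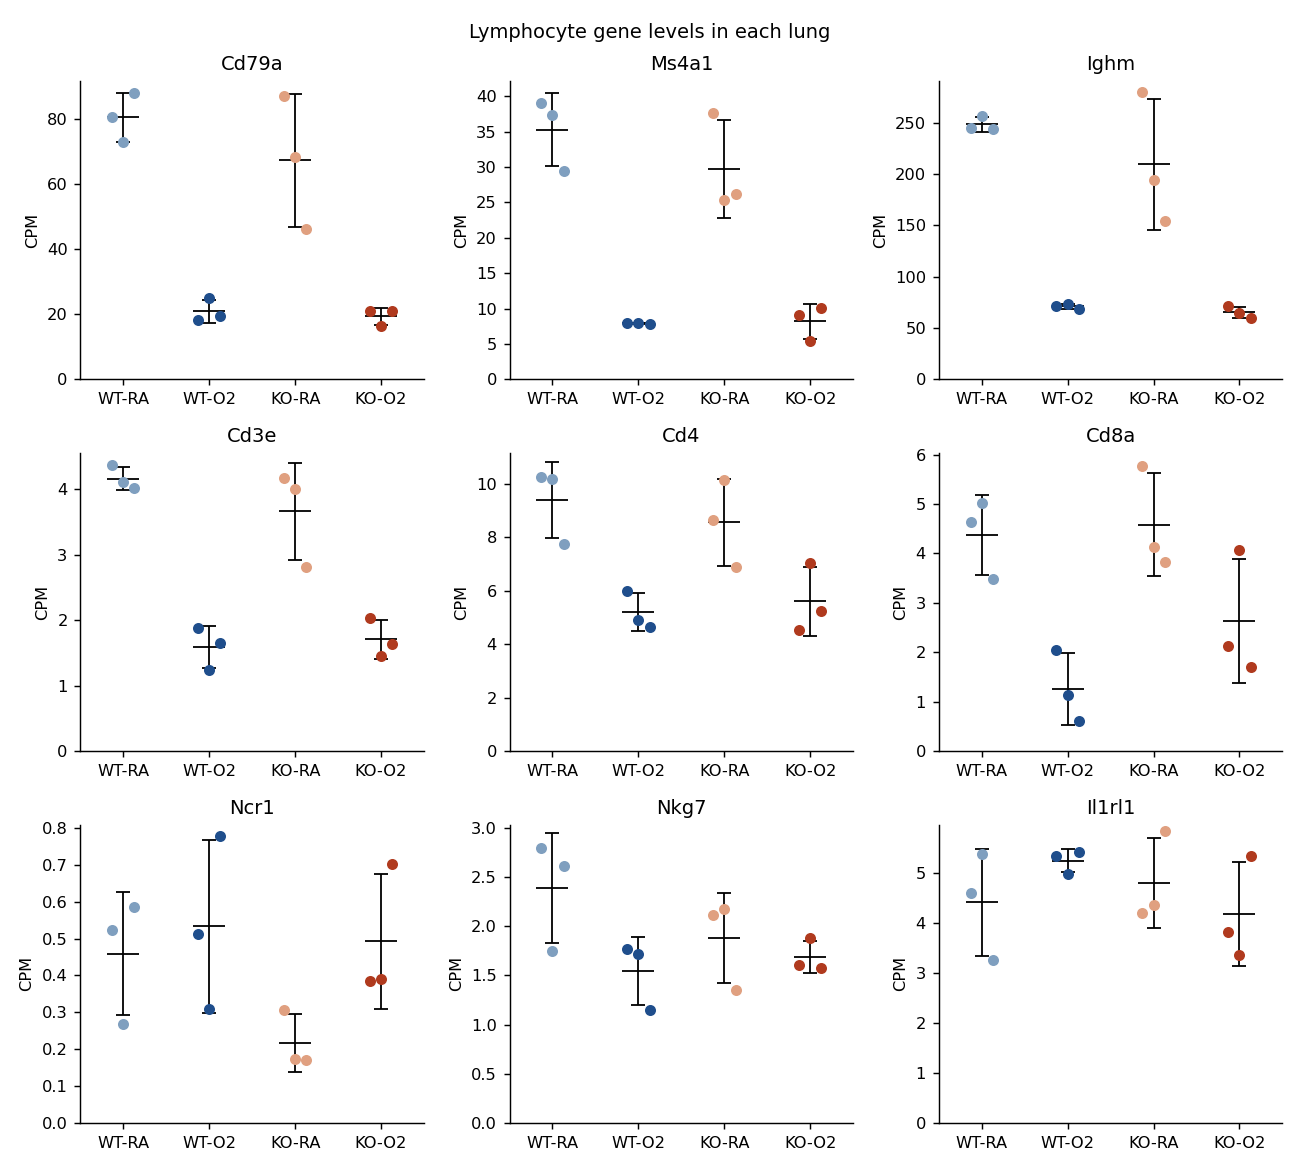
CPM of each of the 9 genes in every lung, 1 panel per gene with its own axis from 0, grouped as WT-RA, WT-O2, KO-RA and KO-O2. Points are single lungs and bars are the mean ± SD of 3 mice; the 3 B cell genes separate room air from hyperoxia in every panel, while Ncr1, Nkg7 and Il1rl1 overlap between exposures in WT.

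The 3 B cell genes had the largest decreases of the 9 on the log2 scale in both genotypes. Cd79a (ENSMUSG00000003379, chromosome 7) encodes the signaling chain of the B cell receptor. It was at 80.8, 73.0 and 88.1 CPM in the WT-RA lungs and at 18.2, 24.95 and 19.6 CPM in the WT-O2 lungs. In GSDMD-KO mice it was at 87.3, 68.6 and 46.2 CPM in room air and 20.9, 16.3 and 20.97 CPM in hyperoxia. No hyperoxia lung reached the lowest room air lung in either genotype, and the KO-RA lungs spread more widely than the WT-RA lungs. In edgeR the log2 fold change was -1.95 (SE 0.208, adjusted p = 1.91e-05) in WT and -1.8 (SE 0.208, adjusted p = 4.04e-05) in GSDMD-KO lungs, decreases of 3.85-fold and 3.47-fold.

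Ms4a1 (ENSMUSG00000024673, chromosome 19) encodes CD20, a surface protein of mature B cells. It was at 39.0, 37.4 and 29.4 CPM in WT-RA and 7.93, 7.98 and 7.76 CPM in WT-O2, and at 37.6, 25.4 and 26.1 CPM in KO-RA and 9.08, 5.44 and 10.1 CPM in KO-O2. The exposures were again fully separate, and Ms4a1 had the largest decrease of the 9 genes in both genotypes. In edgeR it fell by 2.16 on the log2 scale in WT (SE 0.211, adjusted p = 4.88e-06, 4.46-fold) and by 1.85 in GSDMD-KO (SE 0.2095, adjusted p = 1.99e-05, 3.60-fold).

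Ighm (ENSMUSG00000076617, chromosome 12) encodes the heavy chain of IgM. Its levels were 245, 256.5 and 243 CPM in the WT-RA lungs, 71.1, 73.0 and 68.8 CPM in the WT-O2 lungs, 279.5, 194 and 154 CPM in KO-RA, and 71.2, 64.7 and 59.9 CPM in KO-O2. Hyperoxia lungs of both genotypes lay within 59.9 to 73.0 CPM, a narrower span than the KO-RA lungs alone. The log2 fold change in edgeR was -1.81 (SE 0.163, adjusted p = 2.13e-06) in WT and -1.68 (SE 0.162, adjusted p = 4.4e-06) in GSDMD-KO. The calls of the 3 B cell genes held under every alternative processing and with each lung left out in turn.

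The promoter of Cd79a is shown because this gene had the second largest decrease in WT and because its matched window could be compared with that of a T cell gene. RefSeq promoters on GRCm38.p6, 250 bases before to 50 after the annotated start, were matched for 6 of the 9 genes. The Cd79a window is chr7:24897247-24897546 on the plus strand, written 5′ to 3′, and capitals mark the matches to the motifs searched.

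Cd79a promoter: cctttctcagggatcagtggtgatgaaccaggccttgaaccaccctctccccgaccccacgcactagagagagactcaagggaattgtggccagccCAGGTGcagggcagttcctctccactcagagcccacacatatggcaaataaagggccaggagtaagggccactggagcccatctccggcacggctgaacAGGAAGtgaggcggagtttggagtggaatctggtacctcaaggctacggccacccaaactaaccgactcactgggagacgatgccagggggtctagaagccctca

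Searched on both strands were AGGAAG (an ETS core with flanks, in 35.4% of 32851 promoters of this length), CAGNTG (E-box, 51.4%), CCCNNGGG (EBF half-sites, 13.7%), TGACGT (cAMP response element half-site, 7.5%), TGTGGT (RUNX, 16.8%), AGATAA (read by factors of the GATA family, 11.2%) and TATAAA (a core promoter element, 13.6%). The Cd79a window held 1 match to AGGAAG and 1 to CAGNTG, which do not overlap. A match describes letters only and is not evidence of binding.

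The B cell list holds other genes of the B cell receptor, its coreceptors and the transcription factors of B cells. Of its 23 tested genes 21 were called lower in WT and 22 in GSDMD-KO, none was called higher, and the medians of the log2 fold change were -1.79 and -1.71. Pou2af1, a transcriptional coactivator of B cells, Cxcr5, the chemokine receptor that guides B cells into follicles, and Cd72, an inhibitory coreceptor, had the smallest p in both genotypes. Cxcr5 went from 14.1 ± 2.33 to 3.38 ± 0.568 CPM in WT mice and from 11.0 ± 0.715 to 3.18 ± 0.701 CPM in GSDMD-KO (SD, n = 3). The exception in both genotypes was Blnk, an adaptor that is also expressed outside B cells, at -0.42 in WT and -0.36 in GSDMD-KO. In WT Vpreb3, with a log2 fold change of -0.89, also missed the fold threshold.

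Genes of antibody-secreting cells were near the detection limit. Jchain, which joins secreted IgM and IgA, was at 15 to 18 counts in the WT-RA lungs and 0 to 2 counts in the WT-O2 lungs, and at 5 to 10 counts in KO-RA and 1 to 4 counts in KO-O2. Igha, the IgA heavy chain, had 0 to 17 counts in WT-RA and 0 to 2 in WT-O2. Mzb1, a chaperone of immunoglobulin assembly, was better measured and fell by 1.53 on the log2 scale in WT and by 1.08 in GSDMD-KO. Of the 10 genes of the plasma cell and switched immunoglobulin list 4 were tested, and 3 of them (Jchain, Igha and Mzb1) were called lower in each genotype. No median is given, since Jchain and Igha were at 3 counts or fewer in every WT-O2 lung. Prdm1, which encodes the transcription factor Blimp-1 and is not restricted to lymphocytes, was not called in either genotype. Its log2 fold change was 0.05 in WT and 0.72 in GSDMD-KO, the latter past the adjusted p without reaching 2-fold (adjusted p = 0.000487 in edgeR).

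The T cell genes were counted at lower levels. Cd3e (ENSMUSG00000032093, chromosome 9), a signaling chain of the T cell receptor complex, was at 4.36, 4.10 and 4.025 CPM in WT-RA and 1.875, 1.24 and 1.655 CPM in WT-O2. In GSDMD-KO mice it was at 4.17, 4.00 and 2.81 CPM in room air and 2.03, 1.45 and 1.64 CPM in hyperoxia. The exposures did not overlap in either genotype. By edgeR, Cd3e fell by 1.39 on the log2 scale in WT (SE 0.217, adjusted p = 0.000152, 2.61-fold) and by 1.1 in GSDMD-KO (SE 0.216, adjusted p = 0.001055, 2.14-fold). In GSDMD-KO the fold dropped just under the threshold without KO-RA lung 1 (-1, adjusted p = 0.0063 in edgeR) or KO-O2 lung 2 (-0.99, adjusted p = 0.0079).

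The Cd3e promoter is shown as the counterpart from a T cell gene. It lies at chr9:45009562-45009861 on the minus strand of GRCm38.p6, with capitals marking 2 matches to AGGAAG, 1 to CAGNTG and 1 to TGACGT, none overlapping another.

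Cd3e promoter: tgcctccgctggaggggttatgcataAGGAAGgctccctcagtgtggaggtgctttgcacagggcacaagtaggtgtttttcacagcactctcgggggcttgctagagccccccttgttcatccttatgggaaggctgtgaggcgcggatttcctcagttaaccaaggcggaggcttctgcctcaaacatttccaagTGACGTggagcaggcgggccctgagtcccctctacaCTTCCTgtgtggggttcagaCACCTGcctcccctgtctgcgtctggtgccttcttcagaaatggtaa

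Both windows thus hold AGGAAG and CAGNTG, letters that 35.4% and 51.4% of all promoters of this length also hold.

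Cd4 (ENSMUSG00000023274, chromosome 6), the coreceptor of helper T cells that macrophages and dendritic cells may also express, did not reach the fold threshold. It was at 10.3, 10.2 and 7.74 CPM in WT-RA and 6.00, 4.92 and 4.66 CPM in WT-O2, and at 8.64, 10.1 and 6.88 CPM in KO-RA and 4.51, 7.045 and 5.25 CPM in KO-O2. The WT exposures were separate, whereas KO-O2 lung 2 lay above KO-RA lung 3. The log2 fold changes of -0.86 (SE 0.193, adjusted p = 0.00267) and -0.61 (SE 0.193, adjusted p = 0.0214) passed the adjusted p of edgeR in both genotypes without reaching 2-fold.

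Cd8a (ENSMUSG00000053977, chromosome 6), the coreceptor of cytotoxic T cells, also carried by some dendritic cells, varied widely between lungs. It was at 4.64, 5.01 and 3.47 CPM in WT-RA and 2.05, 1.14 and 0.608 CPM in WT-O2, and at 5.77, 4.14 and 3.83 CPM in KO-RA. The KO-O2 lungs were at 2.13, 4.07 and 1.71 CPM, with lung 2 at the level of the KO-RA lungs and the other two below all of them. Cd8a fell by 1.79 on the log2 scale in WT (SE 0.3925, adjusted p = 0.002625 in edgeR). In GSDMD-KO its log2 fold change of -0.8 (SE 0.368, adjusted p = 0.104 in edgeR) was not called. Without KO-O2 lung 2 it was -1.24 with an adjusted p of 0.021 in edgeR, a call.

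**Figure D2:**
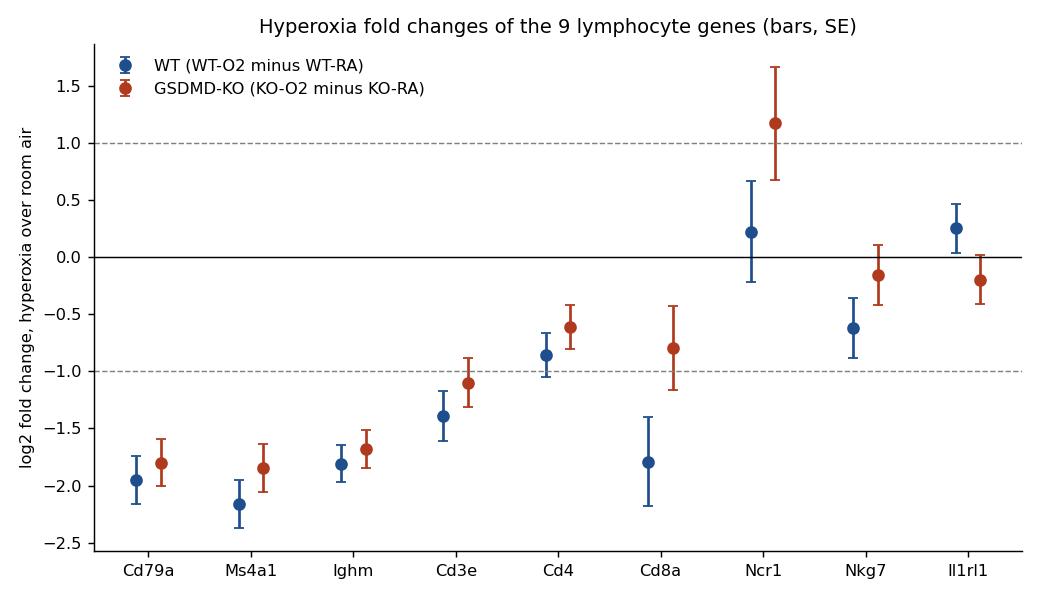
Log2 fold change of hyperoxia over room air for the 9 genes in WT and GSDMD-KO lungs, with bars of ± 1 standard error (SE) from edgeR's fit of all 12 lungs and dashed lines at a log2 fold change of 1 in either direction. The 3 B cell genes lie furthest below 0 in GSDMD-KO lungs, while Nkg7 and Il1rl1 lie within 1 of 0 in both genotypes and Ncr1 is at 0.22 in WT and 1.17 in GSDMD-KO.

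Thymocyte genes were also high in KO-O2 lung 2, which held the most Rag1, the recombinase of developing lymphocytes. Rag1 was at 3.47 CPM there against 0.280 and 0.1003 CPM in the other KO-O2 lungs, 0.138 to 0.405 CPM in WT-O2, 0.848 to 1.435 CPM in KO-RA and 0.875 to 1.95 CPM in WT-RA. Dntt, the terminal transferase of immature lymphocytes, was at 1.345 CPM in that lung and at 0.663 CPM in WT-RA lung 1, and no other lung exceeded 0.270 CPM. Cd8b1, the partner chain of Cd8a, was also highest of the KO-O2 lungs in lung 2, at 3.485 CPM against 1.92 and 1.16 CPM. Arpp21, a phosphoprotein gene of thymocytes and neurons, was at 1.96 CPM in that lung against 0.525 and 0.417 CPM, and Ptcra, the pre-T cell receptor alpha chain, at 0.2905 CPM against 0.0409 and 0.0669 CPM. Of the 6 tested thymocyte genes 1 was called lower in both genotypes, Cd1d1 (-1.57 in WT and -1.47 in GSDMD-KO), which many other cells express, and 1, Arpp21, was called higher in GSDMD-KO (1.73).

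The thymocyte list of 8 genes summed to 37.3 to 44.25 CPM in WT-RA and 36.1 to 38.4 CPM in KO-RA lungs. Its sums were 31.1 to 35.0 CPM in WT-O2 and 31.5 to 39.3 CPM in KO-O2 lungs, with 5 to 8 of its genes above 3 counts in a lung. Rag1, Dntt, Ptcra and Arpp21 had means of only 1.25, 0.357, 0.0921 and 0.366 CPM in WT-RA. Most of the sum thus came from other genes of the list, and it does not measure thymocytes. Foxn1, the defining transcription factor of thymic epithelium, had 0 to 4 counts in every lung, and Glycam1, a marker of lymph node venules, was at 0 in all 12. The 6 thymic epithelium genes summed to 8.11 to 9.21 CPM in WT-RA and 9.92 to 11.3 CPM in KO-RA lungs. Their sums were 12.0 to 14.4 CPM in WT-O2 and 12.6 to 14.03 CPM in KO-O2 lungs. Of the 4 tested thymic epithelium genes 1, Tbata, was called higher in each genotype, and no other passed the adjusted p. Ccl25 of this list was at 3.77 and 4.44 CPM in WT-RA and WT-O2, and at 5.41 and 4.58 CPM in KO-RA and KO-O2. Psmb11 was at 1.4 and 0.987 CPM, and at 1.31 and 1.07 CPM, in the same groups. The higher sum therefore does not describe the list as a whole. The part of thymic tissue in the T cell values was not tested. Leaving out KO-O2 lung 2 together with WT-RA lung 1, the lungs highest in Dntt, an alternative chosen after seeing the data, left Cd3e at -0.99, under the fold threshold, and brought Cd8a to -1.25 in GSDMD-KO, and the number of T cell list genes called lower was 19 in WT and 14 in GSDMD-KO.

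**Figure D3:**
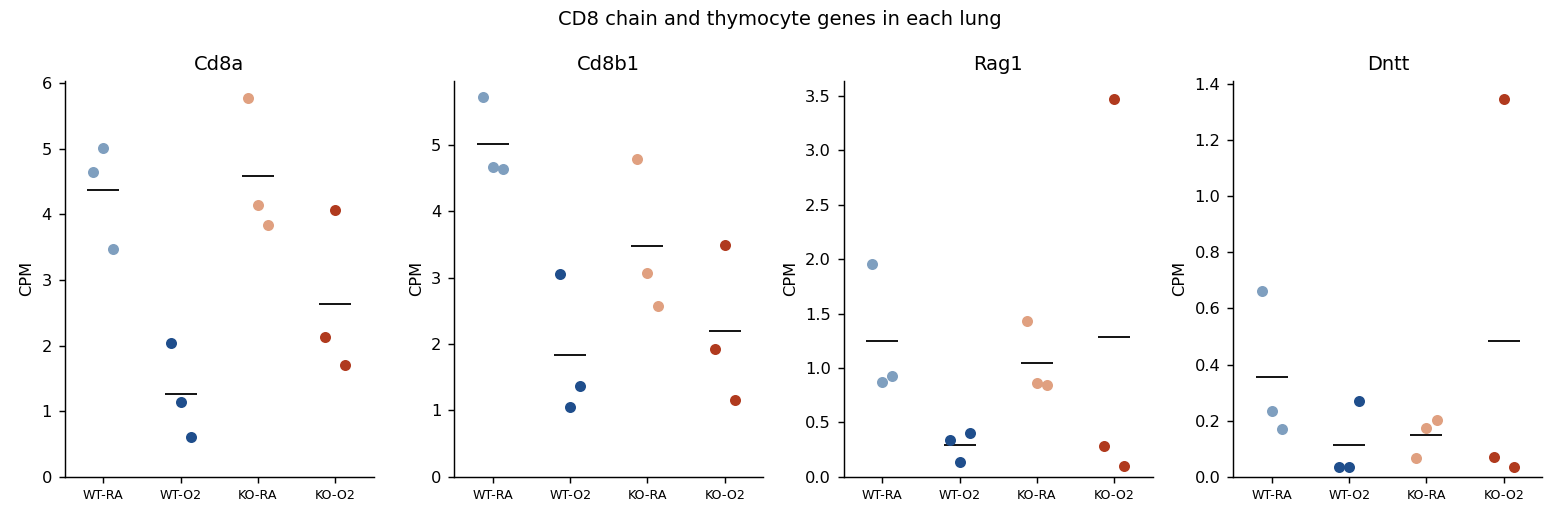
CPM of Cd8a, its partner chain Cd8b1 and the thymocyte genes Rag1 and Dntt in each of the 12 lungs, with a bar at the mean of the 3 mice of a group. KO-O2 lung 2 is the highest KO-O2 lung in all 4 panels and the highest of all 12 lungs for Rag1 (3.47 CPM) and Dntt (1.345 CPM).

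Among the 29 tested genes of the T cell list 19 were called lower in WT and 12 in GSDMD-KO, with none called higher in either and medians of -1.22 and -0.93. Lef1, a transcription factor of naive T cells that lung mesenchyme also expresses, and Cd2, an adhesion receptor of T and NK cells, had the smallest p in both genotypes. Cd2 went from 21.5 ± 0.972 to 5.67 ± 0.563 CPM in WT mice and from 16.3 ± 3.12 to 5.22 ± 0.478 CPM in GSDMD-KO (SD, n = 3). Trbc2, a constant segment of the T cell receptor beta chain with a near-identical copy in Trbc1, fell by 1.74 on the log2 scale in WT and was at -0.96 in GSDMD-KO, just short of the fold threshold. Foxp3, the defining factor of regulatory T cells, fell by 1.1 in WT and by 1.38 in GSDMD-KO. At an adjusted p under 0.1, 27 of the 29 genes changed in WT, of which Cd247, a signaling chain that NK cells share, was higher by 0.39.

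Genes of gamma-delta T cells moved in both directions. Of the 7 tested genes 2 were called lower in each genotype, Sox13 and Blk, of which Blk is also a kinase of B cells. Sox13, a transcription factor of gamma-delta T cells that other lung cells may also express, was at 160 ± 7.90 CPM in WT-RA and 57.2 ± 1.65 CPM in WT-O2 lungs (SD, n = 3). The 4 tested constant segments of the gamma and delta chains were not called lower in either genotype. Trdc, the delta constant segment, was at 1.275, 1.19 and 1.20 CPM in WT-RA and 2.65, 1.05 and 1.32 CPM in WT-O2, and at 0.726, 0.879 and 0.578 CPM in KO-RA and 1.12, 3.59 and 1.70 CPM in KO-O2. It was called higher in GSDMD-KO (1.57, SE 0.4293, adjusted p = 0.00983 in edgeR), with its highest value in KO-O2 lung 2, and was not called in WT (0.46). Tcrg-C1, a gamma constant segment with near-identical copies, was at 0.51 in WT and 0.9 in GSDMD-KO, and Tcrg-C4 was at 0.38 and -0.32. Cd163l1, a scavenger receptor of gamma-delta T cells, was called higher in WT (1.38). The medians of the 7 genes were 0.41 and 0.73.

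Neither NK cell marker was called lower in either genotype. Ncr1 (ENSMUSG00000062524, chromosome 7) encodes NKp46, an activating receptor of NK cells and some innate lymphoid cells, and was counted at under 1 CPM in every lung. It was at 0.5235, 0.269 and 0.585 CPM in WT-RA and 0.511, 0.310 and 0.777 CPM in WT-O2, and the exposures overlapped. In GSDMD-KO mice it was at 0.3075, 0.172 and 0.1695 CPM in room air, 5 to 9 counts per lung, and at 0.385, 0.389 and 0.7025 CPM in hyperoxia, 11 to 21 counts. The GSDMD-KO exposures were separate. By edgeR, the log2 fold change was 0.22 (SE 0.442, adjusted p = 0.726) in WT and 1.17 (SE 0.493, adjusted p = 0.0731, 2.26-fold) in GSDMD-KO.

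The call for Ncr1 in GSDMD-KO was not stable. It was lost with DESeq2 (1.19, adjusted p = 0.11), with no filter on low counts (1.18, adjusted p = 0.1 in edgeR) and with sex as a covariate (1.08, adjusted p = 0.14 in edgeR). It was also lost without KO-O2 lung 3 (0.82, adjusted p = 0.28 in edgeR), KO-RA lung 2 (1.04, adjusted p = 0.19) or KO-RA lung 3 (1.02, adjusted p = 0.19). In WT its sign turned without WT-RA lung 2 (-0.05) or WT-O2 lung 3 (-0.15).

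Nkg7 (ENSMUSG00000004612, chromosome 7), a granule protein of NK cells and cytotoxic T cells, was at 2.79, 1.75 and 2.61 CPM in WT-RA and 1.77, 1.72 and 1.15 CPM in WT-O2, and at 2.12, 2.17 and 1.36 CPM in KO-RA and 1.61, 1.88 and 1.57 CPM in KO-O2. The exposures overlapped in both genotypes, in WT through WT-RA lung 2 alone. By edgeR, the log2 fold change was -0.62 (SE 0.26, adjusted p = 0.0685) in WT, past the adjusted p without reaching 2-fold, and -0.16 (SE 0.262, adjusted p = 0.665) in GSDMD-KO.

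Few of the other NK and cytotoxic genes were called. Of 18 tested genes of the 22 listed, 3 were called lower and 1 higher in WT and 1 lower and 2 higher in GSDMD-KO, with medians of -0.48 and -0.1. Among all tested genes 6.57% were called lower and 5.04% higher in WT, and 6.03% lower and 4.57% higher in GSDMD-KO. Counts this small give no direction for the list. The log2 fold change was below 0 for 14 of the 18 in WT and 11 in GSDMD-KO. S1pr5, the sphingosine phosphate receptor of mature NK cells that endothelium also carries, was lower in both genotypes, from 3.46 ± 0.949 to 0.728 ± 0.1765 CPM in WT mice and from 2.095 ± 0.6085 to 0.8745 ± 0.135 CPM in GSDMD-KO (SD, n = 3). Gzmb, the cytotoxic protease granzyme B, rose by 1.28 and 1.51 on the log2 scale, from 0.527 ± 0.230 to 1.28 ± 0.460 CPM in WT mice and from 0.569 ± 0.427 to 1.64 ± 0.624 CPM in GSDMD-KO. Txk, a kinase of T and NK cells, and Klre1, an NK receptor, were called lower in WT, and Xcl1, a chemokine of NK and T cells, was called higher in GSDMD-KO. Klrb1c, the NK1.1 antigen, and Eomes, a transcription factor of NK cells, were not called in either genotype.

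Il1rl1 (ENSMUSG00000026069, chromosome 1) encodes ST2, the receptor of interleukin-33. It was at 4.59, 5.365 and 3.255 CPM in WT-RA and 5.32, 4.975 and 5.41 CPM in WT-O2, and at 4.20, 4.36 and 5.82 CPM in KO-RA and 3.82, 3.35 and 5.335 CPM in KO-O2. All 4 groups overlapped. By edgeR, the log2 fold change was 0.25 (SE 0.212, adjusted p = 0.3675) in WT and -0.2 (SE 0.214, adjusted p = 0.4865) in GSDMD-KO.

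The Il1rl1 gene has 2 annotated start sites in RefSeq. A window is shown because GATA factors are known in the cells that carry ST2. The upstream one, given here, lies at chr1:40429320-40429619 on the plus strand of GRCm38.p6. Capitals mark 1 match to AGATAA, found in 11.2% of all promoters, and 1 to CAGNTG, which do not overlap. The downstream window also held 1 match to AGATAA, with 1 to TGTGGT, 1 to TGACGT and 0 to CAGNTG.

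Il1rl1 promoter: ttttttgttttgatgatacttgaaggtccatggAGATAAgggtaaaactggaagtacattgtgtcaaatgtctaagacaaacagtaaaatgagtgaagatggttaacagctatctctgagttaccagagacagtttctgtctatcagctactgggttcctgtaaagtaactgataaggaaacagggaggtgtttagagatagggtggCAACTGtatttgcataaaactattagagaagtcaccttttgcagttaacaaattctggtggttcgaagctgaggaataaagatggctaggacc

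Genes of the cells that carry ST2 diverged. Of 8 tested genes of the type 2 innate lymphoid list 3 were called lower in WT (Hs3st1, Gata3 and Klrg1) and 2 in GSDMD-KO (Hs3st1 and Gata3). Gata3, a transcription factor of these cells and of T cells, went from 12.1 ± 2.08 to 4.59 ± 1.09 CPM in WT mice and from 9.09 ± 1.39 to 4.09 ± 0.133 CPM in GSDMD-KO (SD, n = 3). Areg, the growth factor amphiregulin, which epithelium also makes, rose by 1.1 in WT and by 2.77 in GSDMD-KO. Il17rb, the interleukin-25 receptor chain, was at -0.01 and -0.43. The medians of the 8 genes were -0.18 and -0.51.

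Protease genes of the mast cell granule rose, while Kit and Hdc were lower. Cma1, the protease chymase, went from 0.833 ± 0.222 to 15.6 ± 2.87 CPM in WT mice and from 0.739 ± 0.327 to 13.1 ± 5.48 CPM in GSDMD-KO (SD, n = 3), and Tpsb2, a tryptase, from 1.42 ± 0.5235 to 31.5 ± 7.62 CPM and from 1.36 ± 0.116 to 24.6 ± 10.55 CPM. Mcpt4, another chymase, rose by 5.53 and 3.66 on the log2 scale, and Cpa3, mast cell carboxypeptidase, by 2.32 and 2.1. Kit, the stem cell factor receptor, which endothelium also expresses, had log2 fold changes of -3.42 and -3.11. Hdc, histidine decarboxylase, was at -0.82 in WT, past the adjusted p without reaching 2-fold, and was called lower in GSDMD-KO at -1.09. In the list of 11 genes, 10 of them tested, 6 were called higher and 1 lower in WT and 5 higher and 2 lower in GSDMD-KO, with medians of 1.84 and 1.42.

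Il33 itself, the ligand of ST2, was at 47.2 ± 4.63 CPM in the WT-RA and 51.1 ± 9.16 CPM in the WT-O2 lungs, and at 39.7 ± 5.18 and 45.4 ± 3.59 CPM in the KO-RA and KO-O2 lungs (SD, n = 3). Its log2 fold changes of 0.11 (adjusted p = 0.509) and 0.19 (adjusted p = 0.265) in edgeR were not called. Il1r1, the interleukin-1 receptor, was higher by 0.94 on the log2 scale in both genotypes, past the adjusted p without reaching 2-fold. Of the 14 tested genes of the IL-1 family list 1, the decoy receptor Il1r2, was called, higher in WT by 1.54, where 5.04% of all tested genes were called higher. Il1r2 was counted low, at 10 to 19 counts in the WT-RA and 36 to 47 counts in the WT-O2 lungs. The medians of the list were 0.18 and 0.21.

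**Figure D4:**
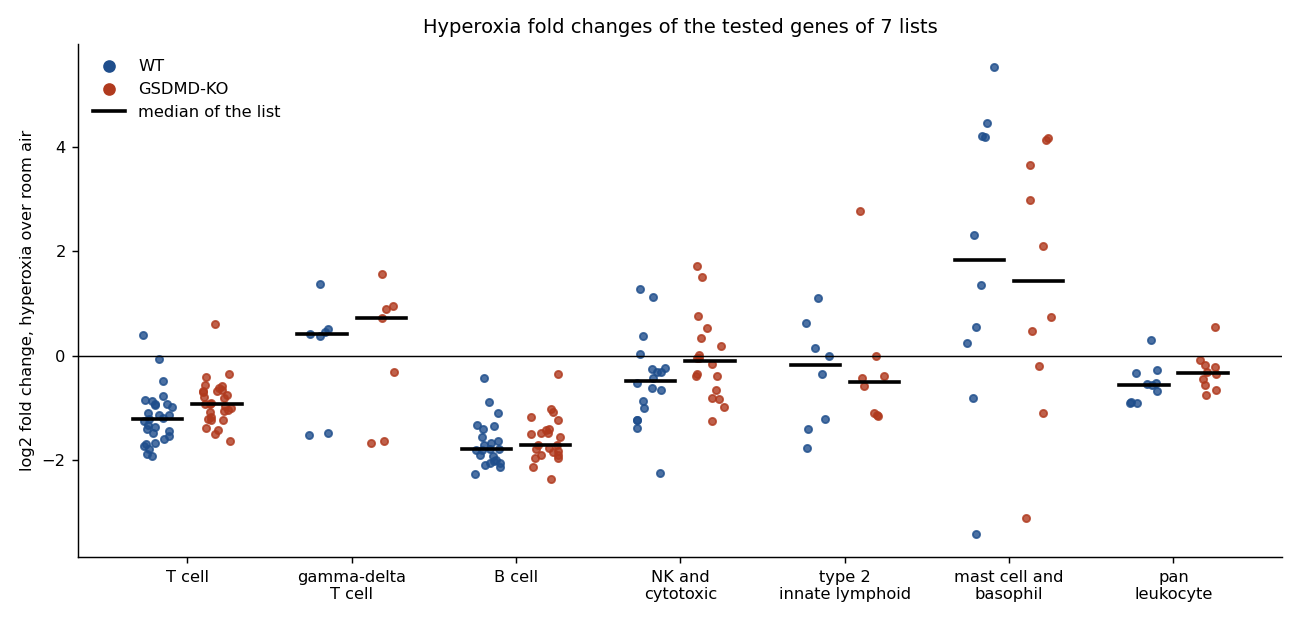
Log2 fold change of hyperoxia over room air for each tested gene of 7 gene lists, in WT and in GSDMD-KO lungs, with a black line at the median of a list. The B cell list (medians -1.79 and -1.71) and the T cell list (-1.22 and -0.93) lie below 0, and the mast cell list lies on both sides of 0 with medians of 1.84 and 1.42.

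Compared per length of transcript, the order of the 9 genes differed between exposures. In WT-RA Ighm was at 132 CPM per kb, Cd79a at 55.35, Ms4a1 at 5.70, Nkg7 at 2.61, Cd4 at 2.33, Cd8a at 1.20, Cd3e at 1.02, Il1rl1 at 0.639 and Ncr1 at 0.298 (means of 3 lungs). The neighbours Nkg7 and Cd4 overlapped (1.91 to 3.055 and 1.92 to 2.545), as did Cd8a and Cd3e (0.955 to 1.38 and 0.986 to 1.07). In WT-O2 Ighm (37.6) and Cd79a (14.4) were still the highest, Ms4a1 (1.275) stood level with Cd4 (1.29), and Il1rl1 (0.7595) stood above Cd3e (0.390) and Cd8a (0.347).

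Genes shared by all leukocytes were measured beside the lymphocyte genes. Of the 10 genes of the pan leukocyte list 0 were called in either genotype, 9 in WT and 7 in GSDMD-KO passed the adjusted p, and the medians were -0.56 and -0.34. Laptm5, a lysosomal protein of leukocytes, was higher, by 0.31 and 0.56. Of the 10 genes of the macrophage and dendritic list 3 in WT and 4 in GSDMD-KO were called higher, among them Cd68 (1.03 and 1.33) and the scavenger receptor Marco (1.3 and 2.35). None was called lower, 2 had log2 fold changes below 0 in each genotype, and the medians were 0.51 and 0.68. The summed CPM of this list was nevertheless lower in hyperoxia, 2161 to 3102 in WT-RA and 1852 to 1971 in WT-O2. In GSDMD-KO it was 2298 to 2450 in KO-RA and 1577 to 1820 in KO-O2. Ptprc, which encodes CD45 of all leukocytes, was at 66.6 ± 11.9 CPM in the WT-RA and 35.7 ± 7.66 CPM in the WT-O2 lungs, and at 51.6 ± 7.30 and 32.8 ± 2.585 CPM in the KO-RA and KO-O2 lungs (SD, n = 3). The ratios of 7 pairs of genes, chosen after their levels were seen, were compared between exposures by an exact two-sided permutation test that exchanged exposure labels within each genotype, 400 arrangements with a smallest possible p of 0.005, and adjusted over the 7 by Benjamini-Hochberg. Because of that choice the p-values describe these lungs and are not independent evidence.

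Relative to Ptprc, Cd79a was lower in hyperoxia by 1.08 on the log2 scale (exact permutation p = 0.005, adjusted 0.035), a ratio 2.11-fold smaller. The log2 ratio was 0.29 ± 0.34 in WT-RA and 0.35 ± 0.44 in KO-RA lungs, and -0.76 ± 0.57 and -0.76 ± 0.09 in the WT-O2 and KO-O2 lungs (SD, n = 3). Relative to Ptprc, Cd3e was also lower, by 0.47 (exact permutation p = 0.01, adjusted 0.035). The exposures overlapped in GSDMD-KO, where KO-O2 lung 1, at -4.09, lay above KO-RA lung 3, at -4.2. The log2 ratio of Cd79a to Cd3e was lower by 0.61 in hyperoxia (exact permutation p = 0.015, adjusted 0.035), although WT-O2 lung 2, at 4.33, lay within the room air range of 4.04 to 4.45. The ratio of Cd4 to Cd3e was higher in hyperoxia by 0.52 (exact permutation p = 0.02, adjusted 0.035), although KO-O2 lung 1, at 1.15, lay within the room air range of 0.94 to 1.34. This difference was 0.37 without KO-O2 lung 2 (exact permutation p = 0.035), the lung high in thymocyte genes, and 0.47 without KO-RA lung 1 (exact permutation p = 0.055).

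The remaining 3 ratios did not pass. Ighm over Cd79a differed between exposures by 0.13 on the log2 scale (exact permutation p = 0.23, adjusted 0.322), with single lungs left out 0.08 to 0.19. Ighm over Ighd, the 2 heavy chains of naive B cells, differed by 0.08 (exact permutation p = 0.605), with single lungs left out -0.01 to 0.16. Cd8a over Cd3e differed by -0.16 (exact permutation p = 0.59, adjusted 0.605), with single lungs left out -0.4 to 0.08.

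**Figure D5:**
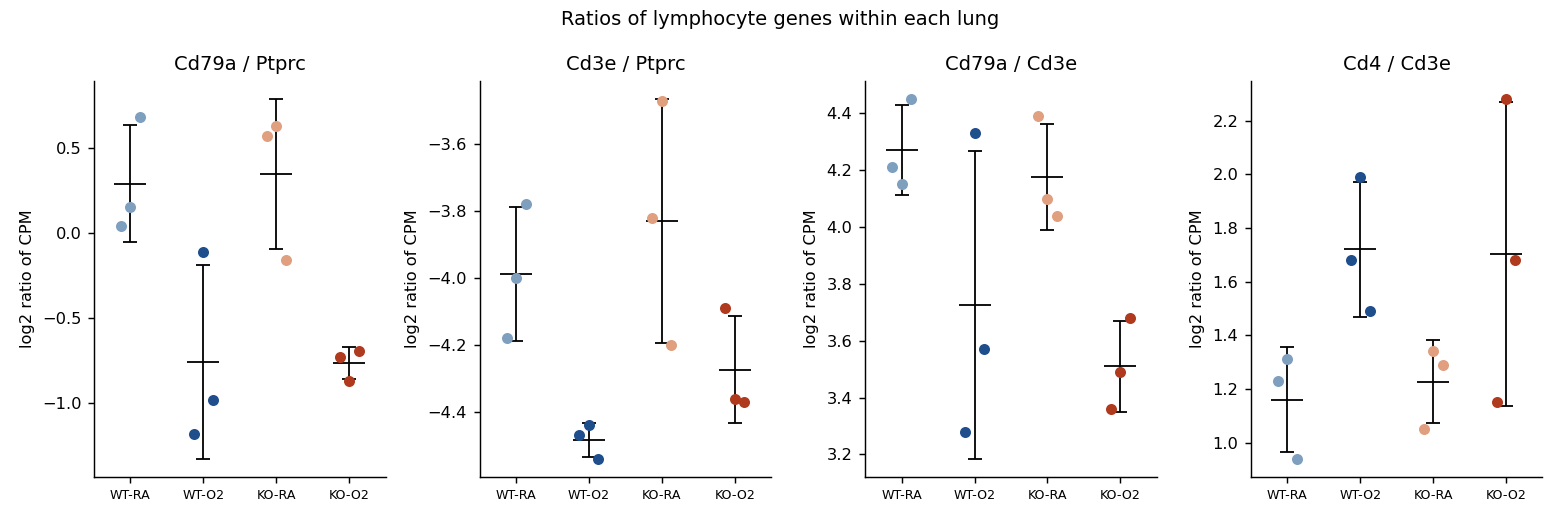
Log2 ratio of the CPM of 2 genes in each lung, by group, for Cd79a over Ptprc, Cd3e over Ptprc, Cd79a over Cd3e and Cd4 over Cd3e; points are lungs and bars the mean ± SD of 3 mice. Cd79a over Ptprc has means of 0.29 and 0.35 in room air and -0.76 in both hyperoxia groups.

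Between genotypes none of the 9 genes was called. Comparing KO-O2 with WT-O2 lungs, 0 members were called, where 0.0238% of all tested genes were, and 1 member had a p under 0.05. That gene was Cd8a, with a log2 fold change of 1.06 (SE 0.40, adjusted p = 0.74 in edgeR), at 1.26 ± 0.727 CPM in WT-O2 and 2.64 ± 1.26 CPM in KO-O2 (SD, n = 3). The groups overlapped, and the value ran from 0.43 to 1.7 over the alternatives. The other 8 genes lay between -0.33 and 0.12.

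Comparing KO-RA with WT-RA lungs, 0 members were called, where 0.137% of all tested genes were, and 1 member, Ncr1, had a p under 0.05, at -1.07 (SE 0.497, adjusted p = 0.475 in edgeR). Cd79a, Ms4a1 and Ighm were at -0.26, -0.25 and -0.25. These 3 values depended on KO-RA lung 1, the highest lung for all 3 genes in that group. This lung was below the cutoff for Y-linked transcripts, at 3.26 CPM in sum. It also had the highest erythroid sum of the KO-RA lungs (26850 CPM against 17770 and 12680). Without this lung the values of Cd79a, Ms4a1 and Ighm were -0.49, -0.46 and -0.51, and with sex as a covariate they were -0.03, -0.05 and -0.02. Only the WT-O2 and KO-RA groups held lungs both above and below the cutoff for Y-linked transcripts. In room air the sex term therefore rests on KO-RA lung 1, and the part of sex in these values was not tested.

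The interaction asks whether hyperoxia acted differently in the genotypes. By this test 0 members passed an adjusted p of 0.1, where 0.00595% of all tested genes did, and 0 had a p under 0.05. With DESeq2 the count of members was also 0 in all 3 of these comparisons. Cd8a had the largest interaction, 0.99 on the log2 scale (SE 0.536, adjusted p = 0.803 in edgeR), followed by Ncr1 at 0.96 (SE 0.663), and Il1rl1 had the lowest at -0.45. The SE of the 9 interactions ran from 0.224 for Ighm to 0.663 for Ncr1, and a p above the threshold does not show that the genotypes responded alike. No gene of the T cell, B cell, NK or gamma-delta list was called in either genotype comparison.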

How the data were processed

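RNA was sequenced from the whole lungs of 12 mice, 3 in each of the WT-RA, WT-O2, KO-RA and KO-O2 groups, which were taken from the genotype and exposure on the sample labels. Reads were quantified by kallisto and brought to gene level by tximport in the hands of the authors, who deposited expected counts, 1 column per mouse, without scaling to library size. The labels name the build mm10, whereas the study's methods name a later one, so coordinates are printed only for RefSeq promoters on GRCm38.p6. Symbols for 35816 of the 36109 genes came from a GRCm38 annotation.

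Counts were rounded and tested in R 4.3.3 with edgeR 4.0.16 (TMM, filterByExpr, 1 quasi-likelihood model of all 12 lungs with a term per group, robust estimation, Benjamini-Hochberg adjustment over 16819 genes), with limma 3.58.1 loaded by it. The contrasts were hyperoxia within each genotype, genotype within each exposure, and their interaction, for which only the adjusted p threshold of 0.1 applied. The SE was obtained by dividing the size of the log2 value by the root of its F statistic. CPM per kb used exon-union lengths. Depth was 28763661 to 29604254 counts per lung, which leaves a visible counting error at the level of Ncr1. The script was tested on simulated counts.

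The 9 genes and the gene lists were chosen with earlier results of these data known, and the lists hold no independent evidence. Named were the 9 genes, the 3 genes of each lymphocyte list with the smallest p in each hyperoxia contrast, the summed CPM of markers of other tissues, and the 5 genes most like Cd3e, Cd79a, Ncr1 and Il1rl1. Genes named outside this rule, the pairs set in ratio and the receptor V segments were chosen after their values were seen. Alternatives were other scalings, DESeq2 1.42.0, other filters and fold thresholds, sex as a covariate, a fit of 6 lungs, leaving out single lungs and, chosen after seeing the data, leaving out 2 pairs of lungs. The retina table of the same study was used for levels only, and its counts may have been scaled, since 2.2% of its nonzero values were within 0.01 of a whole number against 55.8% in the lung.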

Additional observations from a re-analysis of the deposited data

Results flagged for a closer look

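The retina table of the same study was not part of any comparison above. These mice had another exposure than those of the lungs, 75% oxygen from postnatal day 7 to 12 followed by room air, or room air throughout, with retinas collected on day 18. All 3 hyperoxia retinas lay above all 3 room air retinas for 4 of the 9 genes in WT and 2 of the 9 in GSDMD-KO. Of all genes counted above 0 in these retinas, 23.7% in WT and 11.9% in GSDMD-KO did so. They lay below them for 0 of the 9 in either genotype, where 1.87% of all such genes in WT and 6.27% in GSDMD-KO did. Most separated genes of the whole table thus lay above, in WT above all. None of these differences was tested, and the retina counts may have been scaled. Retina CPM are relative to the plain total of each library, without TMM, so a shift in composition is not corrected. Cd8a was at 2.658 ± 0.418 CPM in WT-O2 retinas against 1.465 ± 0.140 CPM in WT-RA, and at 3.232 ± 0.214 CPM in KO-O2 against 1.69 ± 0.532 CPM in KO-RA (SD, n = 3). Cd4 was at 1.349 ± 0.7135 CPM in WT-O2 and 0.329 ± 0.222 CPM in WT-RA retinas. Cd79a was at 0.9461 ± 0.147 CPM in WT-O2 and 0.484 ± 0.340 CPM in WT-RA, and Ighm at 2.97 ± 0.569 and 1.54 ± 0.5865 CPM. Cd3e had 0.473 ± 0.553 CPM in the KO-O2 retinas against 0.0978 ± 0.0402 CPM in the KO-RA retinas. The KO-O2 mean came mostly from the highest retina, at 1.11 CPM. The KO-O2 median was 0.159 CPM, and the highest KO-RA retina was at 0.125 CPM.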

How the results depend on the processing

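The count of members called was 5 in WT under every alternative except the lower fold thresholds (7), and 4 to 6 in GSDMD-KO. It was 0 in both genotype comparisons and the interaction under every alternative. The reversed values were Ncr1 in WT, whose log2 fold change ran from -0.15 to 0.49 with single lungs left out, and Il1rl1 in GSDMD-KO, 0.16 without KO-O2 lungs 1 and 2. Cd8a in GSDMD-KO was -1.42 without these lungs (adjusted p = 0.079 in edgeR) and -0.49 with sex as a covariate (adjusted p = 0.27). The cause was not tested. The T cell list had 12 genes called lower in GSDMD-KO, 22 at 1.5-fold, and 8 to 15 with single lungs left out. Over all genes, hyperoxia called 1952 genes in WT and 1783 in GSDMD-KO, and 3923 and 3595 at 1.5-fold or 8268 and 7857 with no fold threshold. For KO-O2 against WT-O2 the 4 calls became 31 with DESeq2, for KO-RA against WT-RA the 23 became 71, and for the interaction the 1 became 110. No paired analysis was possible because the labels carry no replicate numbers. Depth and 3 mice per group limit Ncr1 most, with 5 to 23 counts per lung.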

Other observations

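V segments of antigen receptors were chosen after their values were seen and are given as a description. The heavy chain V segments, 185 in the table, summed to 12.3 ± 2.155 CPM in WT-RA, 3.67 ± 0.453 CPM in WT-O2, 10.2 ± 3.02 CPM in KO-RA and 3.56 ± 0.648 CPM in KO-O2 lungs (SD, n = 3). Between 30 and 37 of them had more than 3 counts in a WT-RA lung and 6 to 11 in a WT-O2 lung. The 160 kappa V segments summed to 24.6 ± 2.37 CPM in WT-RA and 5.83 ± 0.538 CPM in WT-O2, and the 35 T cell receptor beta V segments to 3.42 ± 0.290 and 1.14 ± 0.158 CPM. The V segments of the T cell receptor alpha and delta chains summed to 1.92 ± 0.4225 CPM in WT-RA and 1.15 ± 0.340 CPM in WT-O2. Those of the gamma chain had overlapping sums of 0.218 ± 0.102 CPM in WT-RA and 0.261 ± 0.153 CPM in WT-O2, and of 0.148 ± 0.0396 CPM in KO-RA and 0.218 ± 0.129 CPM in KO-O2. V segments are similar in sequence, so the counting may have split reads between them, and the number detected moves with their total.

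Chemokines and cytokines of lymphocytes moved in both directions. Of 18 tested genes 4 were called higher and 3 lower in WT, and 6 higher and 2 lower in GSDMD-KO, with medians of 0.12 and 0.09. Il7, a survival factor of lymphocytes, rose from 1.86 ± 0.562 to 4.58 ± 0.624 CPM in WT mice and from 1.56 ± 0.333 to 4.17 ± 0.213 CPM in GSDMD-KO mice (SD, n = 3), and Tnfsf13b, the B cell survival factor BAFF, rose by 1.37 on the log2 scale in WT and by 1.02 in GSDMD-KO. Cxcl10, a chemokine that draws activated T and NK cells, rose by 2.61 in WT and by 3.28 in GSDMD-KO. Ccl19, which guides cells with the receptor CCR7, fell by 2.13 in WT and by 3.42 in GSDMD-KO, and Ltb, lymphotoxin beta, which lymphocytes make, fell by 1.64 and by 1.5.

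As a description over the 12 lungs, genes were ranked by the Pearson correlation of their deviations from the group mean (log2 CPM) with those of 4 members. The points share library depth and composition. The genes most like Cd79a were Fam173a, Gm49320, Cd37, Paxx and Igkc, with r of 0.938 to 0.966. Those most like Cd3e were Cacna1e, H2-Eb2, Adam4, Gm3608 and Tnfrsf13c, with r of 0.856 to 0.928. For Ncr1 they were Usp3, Sema4d, Gpr33, Spata48 and Izumo1r (0.871 to 0.93), and for Il1rl1 they were Capn8, Ints12, Il17rb, Zbtb1 and Galnt3 (0.938 to 0.966). Among the members themselves Cd79a and Ighm had an r of 0.75, Cd4 and Cd8a 0.69, and Nkg7 and Il1rl1 -0.64.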
